A study of Mus musculus with 6 samples.

Results

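The surface markers described here are 10 genes whose proteins are used to sort or name stem and progenitor cells: Cd34, Ly6a, Vcam1, Cxcr4, Ncam1, Thy1, Kit, Cd24a, Eng and Cd44. They were taken as a list by name, 10 of the 21485 genes that all 6 count matrices share. The rule itself uses no measured value, but the list was chosen with earlier results of these data known. Counts of markers set beside those of all genes are thus descriptions and not independent evidence. The cells were muscle-derived stem/progenitor cells (MDSPCs) of mouse, obtained by moving the slowly adhering fraction of digested skeletal muscle from flask to flask. There were 3 populations labelled young and 3 labelled old, numbered 1 to 3 within each group as biological replicates. The labels do not say whether any of them came from the same animal. The label codes of old 2 and old 3 begin alike (NA-f), and what the codes mean is not given. All were grown in the same proliferation medium on collagen-coated flasks before droplet 3′ single-cell RNA sequencing. The labels name no strain, sex, age, genotype or treatment for either group, and no marker was used to sort the cells. A UMI is a random tag that lets copies of an RNA molecule be counted once, and a population's level of a gene is given as its CPM, the count scaled to a common library total with TMM factors.

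Surface proteins of this kind link a cell to its neighbours, its matrix and circulating signals. In muscle, satellite cells, the resident stem cells defined by the transcription factor Pax7, are known to carry Vcam1, Cxcr4 and Ncam1, and most quiescent ones carry Cd34, whereas Ly6a (Sca-1) is best known on the fibro-adipogenic cells between the fibres. Cd44, Thy1 and Eng are classical markers of cultured stromal cells, Kit is the receptor of blood progenitors and mast cells, and Cd24a is a small glycosylated protein found on many immature cells.

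The 6 libraries held 61672 cells after limits on depth and mitochondrial reads, with median depths of 13001 to 19951 UMIs per cell. Myogenic markers were present but unequal. Pax7 was at 11.7, 55.5 and 0.0245 CPM in young 1, 2 and 3 and at 11.1, 21.6 and 35.5 CPM in old 1, 2 and 3, so the defining satellite-cell gene was very low in young 3, with 5 positive cells at full depth and 1 at matched depth. Other myogenic genes of young 3 were mixed. Myf5 was at 30.7 CPM there, against 0.00883 CPM in young 1. Myod1, Myog and Itga7 were at 42.2, 32.1 and 19.4 CPM, against 60.0, 33.6 and 18.8 CPM in young 1. Des, Cdh15 and Chrna1 were lower, at 2.48, 5.78 and 62.2 CPM, against 55.5, 13.2 and 199 CPM. Summed over the 10 myogenic genes the CPM ran from 196 in young 3 to 3662 in old 3. Markers of other cell types were unequal too. The 9 haematopoietic genes summed to 1.5 to 9.79 CPM, most of it Cd68 (1.09 to 8.65 CPM) and, in young 2, Csf1r (3.15 CPM), while Ptprc, which defines blood cells, reached 0.0477 CPM at most. The 5 mast cell genes together reached 0.304 CPM, the 7 endothelial genes together 1.85 to 8.90 CPM and the 5 glial genes together 0.839 to 3.00 CPM. The 8 fibro-adipogenic genes summed to 186 to 436 CPM, in young 3 to 265 CPM and so above its myogenic sum, mostly from Gsn (135 to 303 CPM), Col3a1 (12.8 to 132 CPM) and Smoc2 (103 CPM in young 2, 1.18 to 17.1 CPM elsewhere). Pdgfra and Dcn of that list reached 1.88 and 1.58 CPM, and Lum, Dpt and Pi16 0.149 CPM at most, and the 5 pericyte genes summed to 11.3 to 88.2 CPM. Young 1 and old 1 were counted on a shorter gene list than the other 4. Values within a list stand beside the pooled ones for some results, among them the share differences of the 8 markers tested between groups.

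Promoter sequence is shown for 3 markers described by the contrast of cells with and without the differentiation gene Myog, described further on: Cd34 and Cd44 were lower in Myog-positive cells of all 6 populations, as were 20.6% of all genes, and Cxcr4 was higher in 5 of 6. None of the 3 passed the test over all genes. Each run is the 250 bases before the RefSeq start site in GRCm38.p6, on the gene's strand: chr1:194938571-194938820 (plus) for Cd34, chr2:102901666-102901915 (minus) for Cd44 and chr1:128592300-128592549 (minus) for Cxcr4. Capitals mark any of 4 motifs on either strand: the E-boxes CAGCTG and CACCTG, the TATA box TATAAA and the GC box GGGCGG.
Cd34: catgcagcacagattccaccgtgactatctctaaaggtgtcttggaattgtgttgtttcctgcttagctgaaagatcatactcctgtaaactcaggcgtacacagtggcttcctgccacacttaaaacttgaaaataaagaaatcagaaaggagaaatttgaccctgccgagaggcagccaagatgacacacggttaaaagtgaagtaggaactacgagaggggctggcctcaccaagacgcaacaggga
Cd44: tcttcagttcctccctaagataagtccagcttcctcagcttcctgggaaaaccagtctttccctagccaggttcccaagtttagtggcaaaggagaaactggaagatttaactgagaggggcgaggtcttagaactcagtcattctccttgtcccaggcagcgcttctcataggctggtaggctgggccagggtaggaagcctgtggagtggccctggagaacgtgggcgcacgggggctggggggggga
Cxcr4: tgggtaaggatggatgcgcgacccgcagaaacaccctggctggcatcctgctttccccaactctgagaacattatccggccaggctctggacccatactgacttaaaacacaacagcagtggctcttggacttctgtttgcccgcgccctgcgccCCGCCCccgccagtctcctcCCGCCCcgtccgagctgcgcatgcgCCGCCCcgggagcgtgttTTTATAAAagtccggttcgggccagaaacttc
The Cxcr4 run holds neither E-box. It holds GGGCGG 3 times and TATAAA at 2 overlapping places, 1 on each strand, 32 and 30 bases before the start. It has 19 CpG dinucleotides, against a median of 6 over the 32851 promoters of the same length. None of the 4 motifs is in the Cd34 or Cd44 window, which have 6 and 5 CpG. Over all promoters, 13.0% hold CAGCTG, 17.2% CACCTG, 12.4% TATAAA and 32.7% GGGCGG. RefSeq promoters matched 5 of the 10 markers. Those not printed are Eng, with none of the 4 motifs and 4 CpG, and Kit, with GGGCGG and 17 or 18 CpG by start site. A link between these motifs and the Myog contrast was not tested.

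Cd34 and Ly6a, the 2 progenitor antigens of blood and muscle, were each high in 1 old population. Cd34, a sialomucin on haematopoietic, endothelial and muscle progenitors (ENSMUSG00000016494, chr1:194938819-194961279), was at 6.62, 8.77 and 21.4 CPM in young 1, 2 and 3 and at 108, 34.2 and 21.4 CPM in old 1, 2 and 3. Old 1 was the highest and old 2 the next, and the groups touched, since old 3 and young 3 did not differ beyond counting error. Ly6a, a GPI-anchored antigen (ENSMUSG00000075602, chr15:74994877-74998031), was at 22.9, 2.76 and 14.9 CPM in the young populations and at 17.8, 121 and 23.3 CPM in the old populations. Here old 2 was the high population, and the other 2 old ones fell within or close to the young range. The highest and lowest populations differed 16.3-fold for Cd34 and 43.8-fold for Ly6a. Ly6a belongs to a family of related neighbouring genes, and how reads that fit several of them were counted is not given in the sources used here.

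Vcam1 and Cd44, a pair of adhesion receptors, were both highest in young 3 and lowest in young 2. Vcam1, the ligand of the integrin Itga4 with Itgb1 (ENSMUSG00000027962, chr3:116109949-116129688), was at 50.5, 10.5 and 90.7 CPM in the young populations and at 25.4, 31.1 and 42.2 CPM in the old populations. Cd44, the hyaluronan and osteopontin receptor (ENSMUSG00000005087, chr2:102811141-102901665), was at 350, 107 and 416 CPM in the young populations and at 273, 183 and 212 CPM in the old populations. For both, the old populations lay inside the young range. Cd44 varied least of the tested markers, 3.87-fold from lowest to highest, against 8.67-fold for Vcam1.

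Cxcr4 and Ncam1 were each higher in young 2 and old 3, 2 populations with high myogenic sums. Cxcr4, the receptor of the homing chemokine Cxcl12 (ENSMUSG00000045382, chr1:128588199-128592293), was at 7.05, 38.9 and 0.714 CPM in the young populations and at 2.10, 3.03 and 19.3 CPM in the old populations. Its 54.4-fold range was the widest of the 8 tested markers. Ncam1, the neural cell adhesion molecule of myoblasts and nerve (ENSMUSG00000039542, chr9:49502136-49798925), was at 96.0, 319 and 81.0 CPM in the young populations and at 111, 284 and 522 CPM in the old populations. Its 3 populations above 200 CPM, young 2, old 2 and old 3, were those in which the myogenic sum was 2261, 1636 and 3662 CPM. The other 3 had myogenic sums of 391, 196 and 251 CPM. Cxcr4 did not follow the myogenic sum throughout, since old 2 was at 3.03 CPM of Cxcr4, below young 1 at 7.05 CPM. The part of myogenic or differentiating cell share in the Ncam1 level was not tested.

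Cd24a was high in populations of both groups, while the highest levels of Eng were in 2 old populations. Cd24a (ENSMUSG00000047139, chr10:43578284-43584265) was at 6.10, 13.3 and 139 CPM in the young populations and at 62.2, 113 and 15.5 CPM in the old populations. Young 3 and old 2 were its 2 high populations, and low populations were found in both groups. Eng, a co-receptor for ligands of the TGF-beta family (ENSMUSG00000026814, chr2:32646595-32682669), was at 5.32, 4.14 and 11.3 CPM in the young populations and at 38.3, 6.34 and 15.3 CPM in the old populations. Old 1 was the highest for Eng, as it was for Cd34. Genes of chromosome 1, where Cd34 lies, had a median log2 deviation of 0.10 in old 1, and those of chromosome 2, where Eng lies, of 0.01.

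Thy1 and Kit were at or near the limit of detection. Thy1, a GPI-anchored protein of T cells, neurons and stromal cells (ENSMUSG00000032011, chr9:44043384-44048579), had 1, 42 and 3 UMIs in all cells of young 1, 2 and 3 and 3, 3 and 69 UMIs in old 1, 2 and 3. Its 2 populations above 3 UMIs were the same 2 in which Cxcr4 was highest, young 2 and old 3. Kit (ENSMUSG00000005672, chr5:75574916-75656722) had 0, 0 and 1 UMIs in young 1, 2 and 3 and 1, 6 and 0 UMIs in old 1, 2 and 3. With 0 UMIs in young 1 and young 2, a level of up to 0.0265 and 0.0156 CPM is allowed. Neither gene passed the filter on low counts, which left 8 of the 10 markers for the test between groups. Kitl, the ligand of Kit, was at 8.83 to 55.8 CPM in these cultures.

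**Figure D1:**
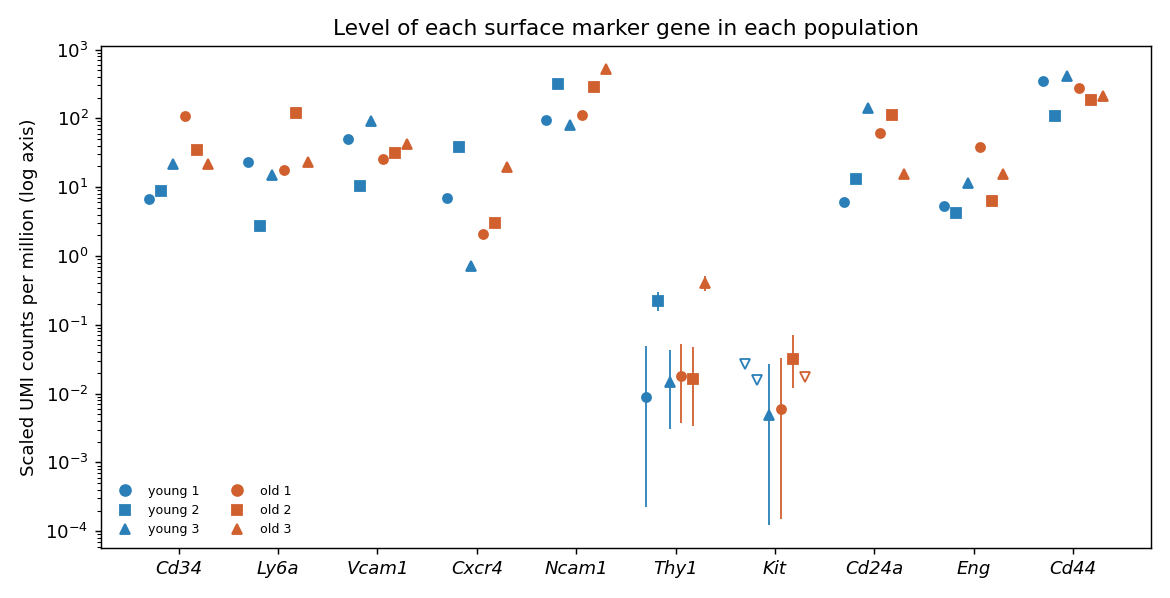
Level of the 10 surface marker genes in each population, in TMM-scaled CPM on a log axis, with 95% Poisson intervals (counting error only) as vertical lines. Blue symbols are the 3 young and orange the 3 old populations, and an open triangle marks 0 UMIs, drawn at the level that 3 counts would give. For all 10 genes young and old symbols interleave or touch, and Thy1 and Kit sit below 1 CPM throughout.

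The first comparison asked whether the markers differed between old and young populations. No marker changed by the test. In edgeR's quasi-likelihood test with a term for the gene list, 0 of 8 markers had an adjusted p under 0.05, against 0.00689% of the 14512 genes tested, and the lowest adjusted p of a marker was 0.999853. The unadjusted p was under 0.05 for 0 of 8 markers, against 3.53% of all genes. DESeq2 also called 0 of 8 markers, against 1.51% of all genes. Its unadjusted p was under 0.05 for 2 of 8 (Cd34 and Ly6a), against 1068 of the 14512 genes. The CPM of young and old populations overlapped for all 8 markers; the count without overlap was 0 of 8, against 6.06% of all genes. These p-values measure the spread between these populations only.

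Cd34 came nearest to the threshold, with a log2 fold change of old over young of 1.84 (SE 0.81, edgeR unadjusted p = 0.0664, adjusted p = 0.999853). Without old 1 it was 0.88, and likewise without young 1, since either leaves only the longer list to compare. It was 2.59 without young 3 and 2.47 without old 3 (edgeR unadjusted p = 0.0102 and 0.0425, adjusted p = 1 for both). For Ly6a the log2 fold change was 2.01 (SE 1.22), 0.69 without old 2, 1.06 without young 2 and 3.03 on the longer list only. For Eng it was 1.23 (SE 0.73), 0.49 without old 1 or without young 1, 1.82 without old 2 and 1.98 without young 3 (edgeR unadjusted p = 0.0174 and adjusted p = 1 for the last). Each of these 3 values thus moved by more than 1.5 times with 1 population left out. Ncam1 differed by 0.75 (SE 0.57), with 0.28 without young 3 and 1.36 without young 2, and Cd24a by 0.82 (SE 1.40). Leaving out young 3 took the Cd24a value to 2.72 (edgeR unadjusted p = 0.037, not past the threshold after adjustment). The 4 longer-list populations alone gave -0.24, so its direction turned. The 3 markers below 0 were Cxcr4 at -1.13 (SE 1.36), Vcam1 at -0.64 (SE 0.74) and Cd44 at -0.39 (SE 0.50). All 3 turned with a young population left out: Cxcr4 to 1.28 without young 2, Vcam1 to 0.54 and Cd44 to 0.33 without young 3. Without young 2, Vcam1 was further below 0, at -1.18 (edgeR unadjusted p = 0.00843, adjusted p = 0.9444). That was the lowest unadjusted p of a marker with a population left out.

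Over the 8 markers, 5 log2 fold changes lay above 0 and the median was 0.78, against 48.9% above 0 and a median of -0.01 over all genes tested. On the longer list alone 4 of 8 lay above 0 with a median of 0.12, as without young 1 or without old 1. Without young 3 it was 7 of 8 with a median of 1.26, and without old 2 it was 5 of 8 with a median of 0.52. Of the 8 markers, 4 (50%) differed 10-fold or more between the highest and the lowest of the 6 populations, namely Cd34, Ly6a, Cxcr4 and Cd24a. Over all genes tested that share was 19.5%, and the median gene differed 2.54-fold.

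**Figure D2:**
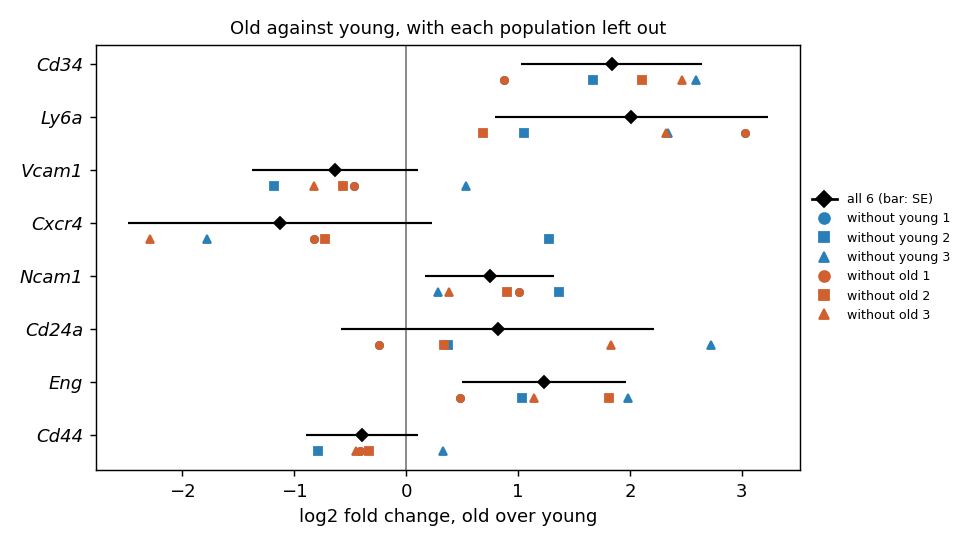
Log2 fold change of old over young for the 8 tested markers (black diamonds, horizontal bars the SE of the edgeR fit), with the value after leaving out each population in turn (coloured symbols). Vcam1, Cxcr4, Cd24a and Cd44 have symbols on both sides of 0, while Cd34, Ly6a, Ncam1 and Eng stay above 0 in all 6 refits.

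The share of cells with a UMI of each marker was compared after every cell was thinned at random to 5000 UMIs, so that depth did not set the share. Cd34 was detected in 2.67%, 4.45% and 10.1% of cells in young 1, 2 and 3 and in 42.0%, 15.7% and 7.08% in old 1, 2 and 3. Ly6a was detected in 7.14%, 1.33% and 6.93% of young and in 7.02%, 33.5% and 8.74% of old cells. The populations with the highest shares were those with the highest summed counts. Eng was found in 1.97%, 1.99% and 6.01% of young and in 18.0%, 3.27% and 6.58% of old cells.

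Ncam1 was found in 28.7%, 70.5% and 31.2% of young and in 38.4%, 68.2% and 85.1% of old cells, and Cd44 in 69.7%, 38.5% and 81.1% of young and in 71.6%, 54.9% and 55.5% of old cells. A UMI of these adhesion molecules was thus found in a large part of the cells of every population. No cell type known to lack them was at hand to give the share that free RNA adds. Vcam1 was found in 19.2%, 4.66% and 36.9% of young and 13.0%, 14.1% and 17.5% of old cells, Cxcr4 in 3.22%, 17.8% and 0.433% of young and 1.26%, 1.5% and 9.22% of old cells. Cd24a was found in 2.01%, 5.44% and 49.3% of young and 19.3%, 41.2% and 3.56% of old cells. Thy1 did not exceed 0.156% and Kit 0.0118% of cells in any population. For Kit, 0 of 12168 cells in old 3 allow a share of up to 0.0247% of cells with a UMI. Ptprc, which these cultures should lack, was in 0% to 0.0247% of cells and Pecam1, an endothelial gene, in 0.118% to 0.489%, at the same 5000 UMIs per cell. The Kit shares lay within the Ptprc range. Those of Thy1 in young 2 and old 3, at 0.103% and 0.156%, were above it, but not above the Pecam1 range. Whether Pecam1 is absent from these cells was not tested, so nothing is read from the Thy1 and Kit shares.

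The groups overlapped in the share of every marker. The old minus young difference was 15.8 percentage points for Cd34 (exact permutation p = 0.2), 11.3 for Ly6a (exact permutation p = 0.2) and 5.97 for Eng (exact permutation p = 0.2). It was 20.5 points for Ncam1 (exact permutation p = 0.3) and 2.43 points for Cd24a (exact permutation p = 0.9). Cxcr4 and Vcam1 were lower by 3.16 and 5.40 points (exact permutation p = 0.7 for both, two-sided), and Cd44 was lower by 2.36 points (exact permutation p = 1). Without old 1 the difference was 5.64 points for Cd34 and 1.60 for Eng, and without old 2 it was 2.75 for Ly6a. For Ncam1 it ran from 9.85 without old 3 to 34.0 without young 2. With 3 against 3 the smallest possible p is 0.1, so no share could pass 0.05. Within the shorter list, which has 1 population per group, the difference was 39.3 points for Cd34, -0.125 for Ly6a and 16.1 for Eng. Within the longer list it was 4.11 points for Cd34, 17.0 for Ly6a and 0.92 for Eng. For Ncam1 the shorter list gave 9.73 and the longer 25.8 points, for Vcam1 -6.19 and -5.01, and for Cxcr4 -1.96 and -3.76. Cd24a (17.3 and -5.00) and Cd44 (1.96 and -4.53) had opposite signs on the 2 lists. The Cd34 and Eng differences thus lay mainly in the shorter-list populations and the Ly6a difference in the longer-list ones.

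How evenly a marker was spread over the cells of a population was read from the observed share against the share that an even spread of the same UMIs would give (a Poisson share, ratio 1). Eng and Vcam1 had ratios near 1 in every population, at 0.948 to 1.00 and 0.942 to 0.985. Ly6a was at 0.732 in old 2 and 0.770 in old 1, and Cd24a at 0.681 in old 1 and 0.772 in old 3, the lowest ratios of the 8 markers. Ncam1 lay between 0.793 and 0.920. At low levels this ratio stays near 1 unless the UMIs sit in few cells, so the variance of UMIs per cell over their mean is given too. It was 2.09 for Ly6a in old 2, and 1.43 in young 2 at a mean of only 0.0149 UMIs per cell. For Cd24a it was 2.14 in old 1 and 1.80 in old 3, for Cd34 1.30 in old 1 and 1.31 in old 3, and for Eng 0.99 to 1.12. Both measures also move with the level of a gene, so they do not rank markers or populations of unlike level by evenness. The variance over the mean of Ncam1 was 1.60 (young 3) to 2.02 (young 1), and that of Cd44 ran from 1.19 (young 2) to 1.87 (young 3). For comparison, Myog, which marks cells entering differentiation, had ratios to the Poisson share of 0.185 to 0.470. The UMIs of Cd34 in old 1 were spread over 42.0% of cells, against 46.3% under an even spread. At the full depth of each library, without thinning, Cd34 was found in 6.84% to 67.7% of cells and Cd44 in 74.9% to 96.4%.

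**Figure D3:**
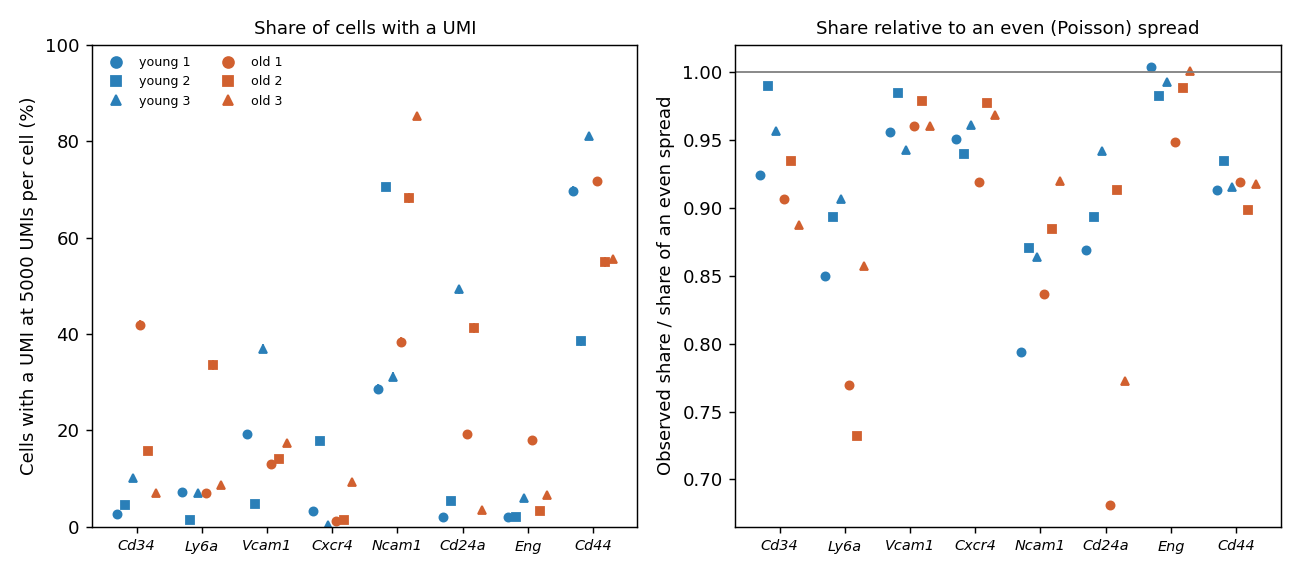
Left: percentage of cells with a UMI of each of 8 markers at 5000 UMIs per cell, in the 3 young (blue) and 3 old (orange) populations. Right: the same share divided by the share an even (Poisson) spread would give, where the line at 1 is an even spread; Ly6a, Ncam1 and Cd24a reach furthest below it, down to 0.681 for Cd24a in old 1.

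At 5000 UMIs a cell held on average 1.35, 1.45 and 2.22 of the 10 markers in young 1, 2 and 3 and 2.11, 2.32 and 1.93 in old 1, 2 and 3. Cells with none made up 14.6%, 12.2% and 3.27% of the young and 5.87%, 4.16% and 3.43% of the old populations. Cells with 4 or more ranged from 1.02% in young 1 to 16.0% in old 2. Young 3 with 10.8% and old 1 with 10.0% were next, so these counts also did not separate the groups. The most markers seen in a cell was 7, in old 1.

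The second comparison asked, within each population, how the markers differed between cells with and without a UMI of Pax7, of Myog, or of Mki67, a gene of cycling cells. The log2 ratio of CPM between both kinds of cell gave 1 value per population, tested with a two-sided exact sign-flip permutation test over populations. Ncam1 was higher in Myog-positive cells of 6 of 6 populations, with a mean log2 ratio of 1.36 ± 0.78 (SD, n = 6; exact permutation p = 0.031, the smallest possible). The populations gave 2.58, 0.97 and 1.37 for young 1, 2 and 3 and 1.95, 0.71 and 0.58 for old 1, 2 and 3. In young 1, for example, 73.1% of the 301 Myog-positive cells had a Ncam1 UMI against 27.0% of the others. The ratio was lowest in the 3 populations where Ncam1 was also common among Myog-negative cells, at 66.0% to 80.0%.

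Cd34, Cd24a and Cd44 were lower in Myog-positive cells of 6 of 6 populations. The mean log2 ratio was -1.15 ± 0.36 (SD, n = 6) for Cd34, -0.97 ± 0.62 for Cd24a and -0.67 ± 0.17 for Cd44, each with exact permutation p = 0.031. In old 1 a Cd34 UMI was in 15.1% of the 73 Myog-positive cells against 42.2% of the rest, and in old 3 in 3.57% of 5686 against 10.2%. Cd44 had the smallest spread, from -0.95 in young 1 to -0.49 in old 1. Ly6a was lower in 5 of 6 populations, by -0.78 ± 0.74 on average, with young 2 at 0.54. Cxcr4 was higher in 5 of 6, at 1.34 ± 1.58. Without old 1 the mean was 0.81, and on the longer list alone 0.72. Its highest value, 3.98 in old 1, rested on 14 UMIs in 73 Myog-positive cells. The next, 2.39 in young 3, rested on 11 UMIs in 586 such cells and is part of both of these means. Young 2, where the level of Cxcr4 was highest, was at -0.21. Vcam1 (-0.39 ± 0.47) and Eng (-0.11 ± 0.44) took both signs.

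These counts are read against all genes. Of the 8 markers 1 (12.5%) was higher and 3 (37.5%) were lower in Myog-positive cells of all populations, against 13.2% and 20.6% of the 10897 genes with enough UMIs. Adjusted over those genes the p of Ncam1, Cd34, Cd24a and Cd44 was 0.0925, the lowest value that a gene reached, and 0% of genes passed 0.05.

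In Pax7-positive cells, Cxcr4, Ncam1 and Vcam1 were higher in 5 of 5 populations, young 3 being left out for having 1 such cell. The mean log2 ratios were 0.99 ± 1.08 (SD, n = 5) for Cxcr4, 0.38 ± 0.46 for Ncam1 and 0.21 ± 0.11 for Vcam1, each with exact permutation p = 0.062, the smallest possible. For Ncam1 the populations gave 0.42 and 0.05 in young 1 and 2 and 1.15, 0.20 and 0.06 in old 1, 2 and 3. Without old 1 the means were 0.60 for Cxcr4 and 0.18 for Ncam1, and on the longer list alone 0.25 and 0.10. Cxcr4 was found in 8.57% of Pax7-positive against 2.91% of other cells in young 1, in 5.51% against 1.01% in old 1 and in 2.17% against 1.42% in old 2. In young 2 and old 3, where Cxcr4 was most common, these shares were close, at 18.2% against 17.7% and 9.42% against 9.18%. The ratio of the observed Pax7 share to the Poisson share was 0.935 and 0.963 there. In young 1, old 1 and old 2 that ratio was 0.956, 0.875 and 0.925. In young 2 and old 3 a Pax7 UMI was in 23.7% and 15.7% of thinned cells, but in 54.2% and 34.2% without thinning. Many cells counted as lacking Pax7 thus held it at full depth, so close shares cannot show that both kinds were alike. The other 5 markers took both signs, and Cd34 was lower in 4 of 5, at -1.10 in old 1. Higher in all 5 were 3 of 8 markers (37.5%), against 27.8% of the 11033 genes tested, and lower in all 5 were 0 of 8, against 4.84%.

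In Mki67-positive cells the mean log2 ratios of the 8 markers lay between -0.32 and 0.23. The mean largest in size was that of Cd24a (-0.32 ± 0.56, SD, n = 6), which was above 0 in 1 of 6 populations. It was at -1.33 in young 1 and -0.63 in old 1. Cd34 (0.23 ± 0.19, SD, n = 6) and Cd44 (0.21 ± 0.10) were higher in 6 of 6 populations, each with exact permutation p = 0.031 and an adjusted p over all genes of 0.0833. That is 2 of 8 markers (25%), against 26.6% of all genes higher in every population, a share near the background. None of the 8 was lower in all 6, against 10.9% of genes.

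**Figure D4:**
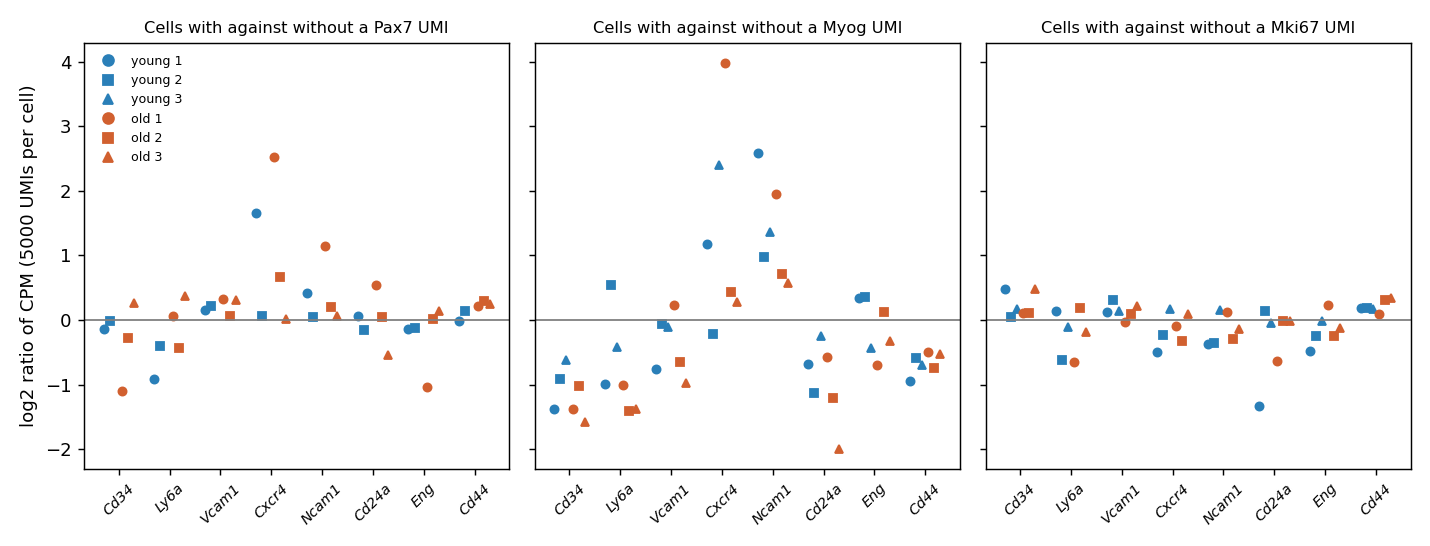
Log2 ratio of CPM between cells with and without a UMI of Pax7 (left), Myog (middle) or Mki67 (right), at 5000 UMIs per cell, for 8 markers; each symbol is 1 population (blue young, orange old). In the middle panel all 6 symbols of Ncam1 lie above 0 and all 6 of Cd34, Cd24a and Cd44 below 0, and the highest value of any panel is Cxcr4 in old 1 at 3.98.

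Co-detection was described for the 45 pairs of markers as the log2 odds ratio of finding both in a cell at 5000 UMIs, where 0 means that cells holding both are as many as the separate shares would give. Only pairs with at least 5 such cells expected were used, which left 27 pairs in 5 or 6 populations. Of these, 3 lay above 0 in every population and 0 below. The share over all gene pairs was not worked out, so this count has no background to be read against. Most values were small: 128 of 156 were of size under 0.5. The values are descriptions of cells that share a library and have no test. Doublets remain among the cells. Without the cells of the highest doublet scores, 6 pairs, Pax7 pairs included, again lay on 1 side of 0 in every population. Those scores called almost no doublets, so this cannot show that the pairs are free of them.

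Cxcr4 and Ncam1 were found together more often than their shares give in all 6 populations, at 1.10, 0.20 and 1.15 in young 1, 2 and 3 and at 1.78, 0.93 and 0.38 in old 1, 2 and 3. In old 1, 0.858% of cells held both against 0.484% from the shares. The other 2 pairs with 1 sign were weaker. Ly6a with Vcam1 ranged from 0.12 to 0.86 and Vcam1 with Cd44 from 0.08 to 0.53. The 2 progenitor antigens, Cd34 and Ly6a, were at 0.68, 0.04 and 0.16 in young 1, 2 and 3 and at -0.41, 0.66 and 0.82 in old 1, 2 and 3. In old 1, where 42.0% of cells had Cd34, the pair was thus found less often than the shares give, in 2.5% against 2.94% of cells.

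Old 1 and old 3 held 4 each of the 10 marker pairs of size 1 or more. In old 1, Ly6a and Cd24a were found together in 3.15% of cells against 1.35% from their shares (log2 odds ratio 1.95), while Cd34 with Cd24a was at -0.95 and Cd34 with Cxcr4 at -1.07. In old 3, Cd34 with Cd24a was at 1.5, and Ncam1 with Cd24a at -1.73 and with Cd34 at -1.02. Cd34 with Cd24a, and Ncam1 with Cd24a (0.44 in old 1), thus had opposite signs in the 2 populations. Cd34 with Ncam1 was below 0 in both (-0.33 in old 1), and Ly6a with Cd24a above 0 in both (0.85 in old 3). Old 3 is the population with the highest Myog level, 990 CPM, and old 1 that with the lowest, 5.64 CPM. The part of Myog-positive cells in these pairs was not tested.

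Of the 8 pairs with Pax7 that could be given in 5 populations, the 3 with Cxcr4, Ncam1 and Vcam1 lay above 0 in all 5. These pairs use the same cells as the Pax7 contrast above and are not a second observation. In that contrast 27.8% of all genes tested were higher in all 5, and the share over all gene pairs with Pax7 was not worked out. Cxcr4 with Pax7 was at 1.66 and 0.04 in young 1 and 2 and at 2.52, 0.65 and 0.04 in old 1, 2 and 3. In old 1, 30 cells held both, 0.303% of cells against 0.0693% from the shares. Cd34 with Pax7 was at -1.38 in old 1, where 1.23% of cells held both against 2.30%, and at -0.003, -0.04, -0.28 and 0.33 in young 1, young 2, old 2 and old 3. The 2 genes that quiescent satellite cells are known to share were thus found together less often than their shares give in the population richest in Cd34.

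**Figure D5:**
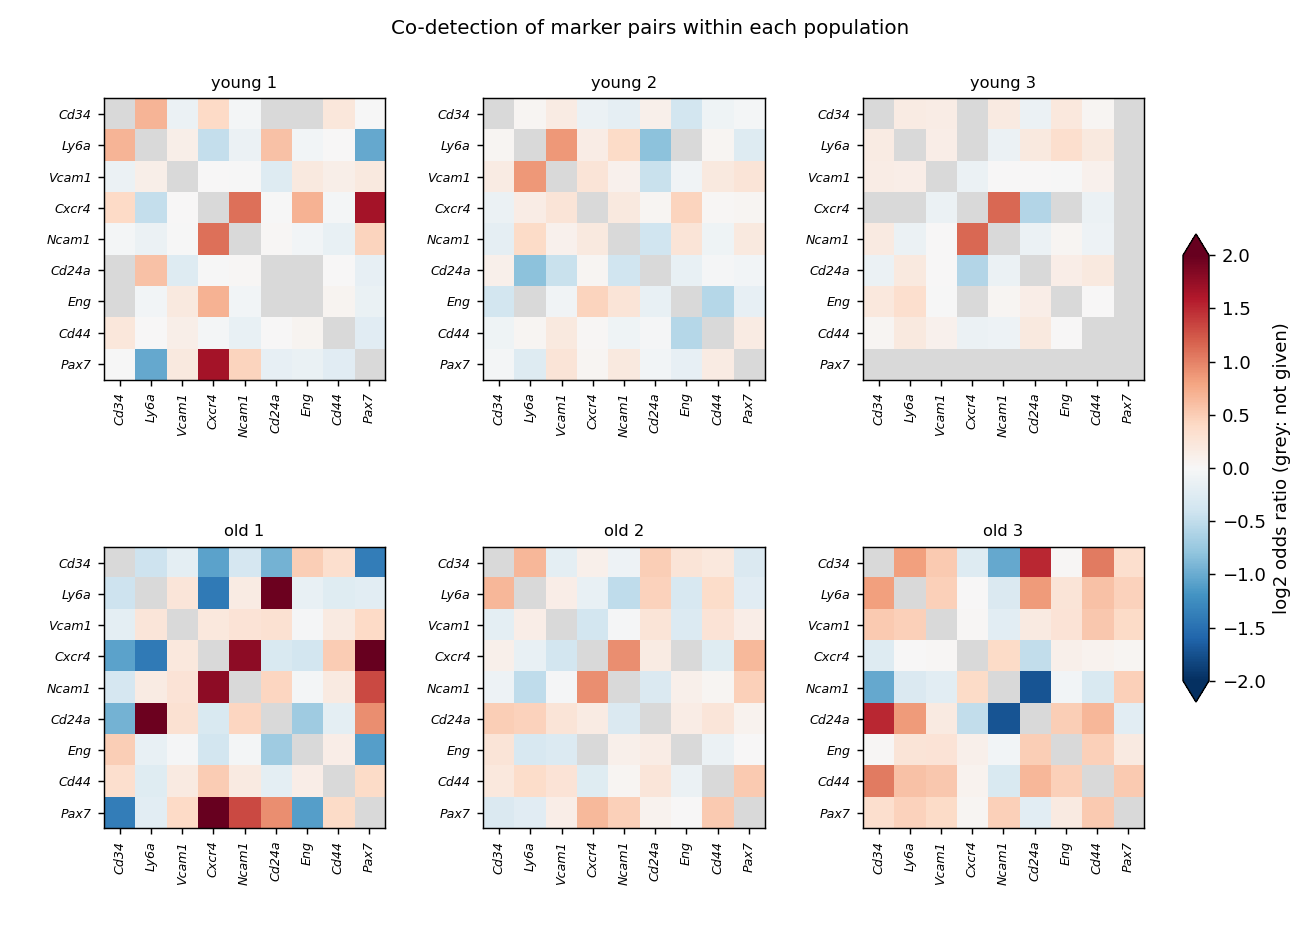
Log2 odds ratio of co-detection for each pair of 8 markers and Pax7 in the 6 populations at 5000 UMIs per cell, red above and blue below 0, with the colour scale ending at 2 and -2; grey squares are pairs with too few expected cells. Old 1 and old 3 show the strongest colours, such as Cxcr4 with Pax7 at 2.52 in old 1 and Ncam1 with Cd24a at -1.73 in old 3.

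For the markers other than Ly6a, the genes with the most similar profile over the 6 populations were named by the root-mean-square difference of centred log2(CPM + 1). Nearest to Cd34 was H2-K1, a class I histocompatibility gene (0.54), followed by Lox, a collagen cross-linking enzyme (0.70), which was also nearest to Eng (0.38). Nearest to Vcam1 was Tmem238 (0.44), to Cxcr4 Gadd45a, a stress and growth-arrest gene (0.59), and to Cd24a Pak3, a kinase (0.52). Ncam1 and Cd44 had the closest matches, Pkia, an inhibitor of protein kinase A (0.18), and Tspan4, a tetraspanin (0.13). Among the 3 nearest genes to Vcam1 was Cd44 itself (0.45). Thy1 and Kit are left out, since on this scale their levels, under 1 CPM, leave almost no profile. These likenesses are over 6 points and have no test.

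Ligands, receptors and partners of the markers were read from a list of 31 genes, of which 30 could be tested. None passed the test in either direction, and 2 had an unadjusted p under 0.05 in edgeR, against 3.53% of all genes. Cxcl12, the ligand of Cxcr4, was at 92.7, 37.7 and 288 CPM in the young populations and at 33.6, 36.5 and 29.1 CPM in the old populations, with no overlap of the groups, as for 6.06% of all genes (log2 fold change -2.03, SE 0.74, adjusted p = 0.999853 in edgeR). Young 3, the population with the most Cxcl12, had the least Cxcr4. St8sia4, a sialyltransferase that adds polysialic acid to Ncam1, was at 0.495, 0.493 and 0.822 CPM in the young populations and at 0.548, 4.4 and 8.02 CPM in the old populations, which overlapped. Its companion St8sia2 was at 51.7, 60.9 and 78.9 CPM in young 2, old 2 and old 3 and at 0.851 to 5.66 CPM elsewhere, the same 3 populations as for Ncam1. Spp1 (osteopontin), a ligand of Cd44, was abundant in all populations at 958 to 11082 CPM, and Itga4, the integrin partner of Vcam1, was at 0.0442 to 2.36 CPM.

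Of 20 other surface and signalling genes of satellite cells, 19 were tested and none was called. The lowest unadjusted p was that of Fgfr4, a fibroblast growth factor receptor, at 0, 0.0467 and 0.513 CPM in the young populations, and at 1.04, 1.96 and 29.2 CPM in the old ones, with no overlap. Calcr, the calcitonin receptor of quiescent satellite cells, was at or under 0.0162 CPM in all 6. Of 25 further stem-cell surface genes, 22 were tested and none was called. Mcam had the lowest unadjusted p, at 4.88, 8.69 and 6.38 CPM in the young populations, and at 0.984, 3.12 and 3.67 CPM in the old populations. Its groups did not overlap, nor did those of Cd59a in the same list. Over all genes tested, 6.06% had no overlap of the groups. The median log2 fold change was 0.06 over the partner list, -0.06 over the satellite-cell list and -0.07 over the third list, against -0.01 over all genes tested.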

How the data were processed

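Single-cell RNA of 6 mouse MDSPC populations was read from the deposited matrices of raw UMI counts per gene and barcode, which the authors made with Cell Ranger 7.0.0 (young 1 and old 1, 21849 features) or 7.2.0 (the others, 32285 features), per the file headers. The build is mm10, per the submitters' processing notes; how intronic reads were treated, how cells were called and which annotation was used are not given in the sources used here. Of the 62849 barcodes, 967 under 1000 UMIs or 500 genes and 209 with 15% or more mitochondrial UMIs were left out. Scrublet called 1 doublet (0.00162% of cells, against 7.13% to 10.2% expected), so it did not work and doublets remain. Library pairs shared 23 to 35 barcodes. The shared genes held 98.5% to 99.9% of UMIs.

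Counts were summed per population and tested over 14512 genes with edgeR 4.0.16 in R 4.3.3 (TMM, filterByExpr by group, robust quasi-likelihood F test, terms for gene list and group, Benjamini-Hochberg over all genes at 0.05); DESeq2 1.42.0 was an alternative. SE is the fold change over the square root of F. Shares, class ratios and pairs used cells thinned to 5000 UMIs, which left out 539 young and 829 old cells; a class ratio needed 20 cells of each kind and 20 UMIs. Odds ratios had 0.5 added to each count. All intervals and limits for 0 cover counting error only: Poisson intervals at 95%, and 3 counts for a 0. The script for the test was tested on simulated data. The markers, lists and tests were chosen with earlier results of these data known. The rule for named genes took all 10 markers, the class genes, up to 2 genes of lowest p per related list where none passed, partner genes, and the 3 nearest profiles of each marker; those of Ly6a are not reported here. Positions are from GENCODE M21 (GRCm38), which matched 21408 of the 21485 identifiers. Alternatives were another tool, other scalings, no count filter, no list term, the replicate block, other cell sets and depths, and each population left out.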

Additional observations from a re-analysis of the deposited data

How the results depend on the processing

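Over the settings tried, 0 markers passed the edgeR or DESeq2 test between groups. The shares cannot go below p = 0.1 and the class contrasts not below 0.031 before adjustment (exact permutation tests), so their counts of 0 say nothing of stability. Of all genes, 1 was called, 219 with DESeq2, 2 with library totals only, 0 without the gene list term and 0 on the longer list only. Leaving out each population in turn gave 0 to 3 genes (3 without young 3, 0 without young 1 or old 1). Replicate numbers paired the populations only in part. Same-numbered ones correlated in their deviations from the group means at 0.378, 0.224 and -0.0814. The first, between the shorter-list populations young 1 and old 1, was the highest of any young with any old population. Young 2 correlated best with old 3 (0.276). With the replicate block 1 gene and 0 markers were called. Pairs with 1 sign numbered 6, and 7 at 10000 UMIs.

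Of 488 single-marker values under other settings, 28 changed direction: 6 of 120 fold changes, 11 of 104 share differences and 11 of 264 class ratios. The log2 fold change of Cd24a was -0.24 on the longer list only, and with each population left out it ran from -0.24 to 2.72; that of Vcam1 ran from -1.18 to 0.54, of Cxcr4 from -2.29 to 1.28 and of Cd44 from -0.79 to 0.33. Leaving out young 1 or old 1 is close to using the longer list only, since the lone shorter-list population then fits its own term. The share difference of Cd24a was -5.00 points on the longer list and -7.48 to 17.6 with each left out; that of Cd44 was 0.402 without thinning and -14.7 to 6.64; that of Vcam1 -13.2 to 2.92 and of Cxcr4 -6.53 to 2.17. With 2 or more UMIs defining the class, the log2 ratio turned to 0.29 for Ly6a and 0.22 for Cd24a by Pax7, and to 0.34 for Cxcr4 and 0.020 for Ncam1 by Mki67. At 3000 UMIs it turned to 0.12 for Cd24a by Pax7 and 0.016 for Cxcr4 by Mki67, and on the longer list to 0.016 for Cd24a by Mki67 and 0.012 for Eng by Pax7. Leaving out a population took Cd24a by Pax7 from -0.14 to 0.12 and Eng by Myog from -0.20 to 0.012. In these turned values the cause was not tested.

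Levels with few UMIs limit what can be said of Thy1 and Kit in all populations, and of Cxcr4 in young 3, old 1 and old 2. Doublets remain, so co-detection includes some droplets of 2 cells.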
